A study of Mus musculus with 4 samples.

Results

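The 9 genes described here are the D cyclins *Ccnd1*, *Ccnd2* and *Ccnd3*, the kinases *Cdk4* and *Cdk6* that they bind, the CIP/KIP inhibitors *Cdkn1a* (p21) and *Cdkn1b* (p27), and the INK4 inhibitors *Cdkn2c* (p18) and *Cdkn2d* (p19). They were chosen by symbol, and all 9 were found once each among the 21926 genes of the count tables. The data are single-cell RNA-seq of unsorted thymocytes of 2 mice that both carry *Eif4g2* flox/flox alleles. One has no Cre (called WT), and the other also carries *CD4-Cre* (called *Eif4g2* cKO). Both animals are labelled female, 5-week-old and of the same batch, and the line was kept on a C57BL/6 background. The *Cd4-Cre* transgene acts from the double-positive (DP) stage on, so double-negative (DN) cells of the cKO mouse are not expected to have lost *Eif4g2*. With 1 library per genotype there was no replicate and no test. All intervals are exact 95% intervals that cover counting error only, and a difference between the libraries cannot be told apart from a difference between these 2 mice or captures.

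D cyclins are made in response to growth signals and activate CDK4 and CDK6 in G1. The active kinases phosphorylate RB family proteins, which releases E2F factors and lets S phase genes be transcribed. INK4 proteins bind CDK4 and CDK6 directly, whereas CIP/KIP proteins bind cyclin-CDK complexes and mainly inhibit CDK2. In the thymus, cells divide vigorously at the DN stage and as DP blasts, and then rest while they rearrange the T cell receptor alpha chain and are selected. Cyclin D3 is known for its part in the expansion of immature thymocytes, while cyclin D2 is used by many other lymphoid cells. All 9 are protein-coding genes, placed here by GENCODE M21 (GRCm38), which holds 97.9% of the tables' gene identifiers in the same version. The cyclins lie at chr7:144929931-144939925 (*Ccnd1*, minus strand), chr6:127125162-127152193 (*Ccnd2*, minus) and chr17:47505051-47599691 (*Ccnd3*, plus). *Cdk4* lies at chr10:127063534-127067920 (plus) and the much longer *Cdk6* at chr5:3341485-3531008 (plus). The inhibitors lie at chr17:29090976-29100727 (*Cdkn1a*, plus), chr6:134920401-134925513 (*Cdkn1b*, plus), chr4:109660876-109667189 (*Cdkn2c*, minus) and chr9:21288410-21291407 (*Cdkn2d*, minus).

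The WT library held 6014 barcodes and 18355050 unique molecular identifiers (UMIs, 1 per captured molecule), with a median of 1732.5 per barcode. The cKO library held 4335 barcodes and 18056277 UMIs, with a median of 2140. The WT library contained 2542 UMIs of 3 Y-linked genes (*Kdm5d*, *Eif2s3y* and *Uty*) against 1 in the cKO library, so the female label of the WT mouse does not match its counts, and sex cannot be told apart from genotype in any comparison of the libraries. *Eif4g2* itself was at 223 (216–230) counts per 1000000 UMIs (CPM) in WT and 274 (266–281) in cKO. In the study's drawing of the allele the last exon lies outside the loxP sites, so these 3′ counts do not check the deletion. The libraries share 1055 cell names, which are running numbers and not barcode sequences.

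Cells were clustered without the 9 genes, the other G1 genes, the cell cycle lists, *Eif4g2* and sex-linked genes, and clusters were named from marker genes. DP-like cells numbered 4000 in WT and 2850 in cKO. Different clusters held most of them, namely clusters 0, 5 and 8 in WT and clusters 1 and 7 in cKO. A cell was called cycling when at least 0.81% of its UMIs fell in a list of 42 S phase and 52 G2/M genes, and resting otherwise. By this threshold 1098 WT cells (18.3%) and 1385 cKO cells (31.9%) were cycling, and 353 and 325 cells lay within 25% of it. One cluster of mostly cycling cells (312 WT and 528 cKO cells, led by *Pclaf*, *Hmgb2* and *Ccnb2*) met the marker rule of no stage and is called the unnamed cycling cluster. Cells were deeper when cycling: in DP-like cells the median was 4988.5 UMIs against 1408 in WT and 5765 against 1350 in cKO.

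Free RNA sets a floor under every level. *Cd8b1*, which erythroid cells do not make, was found in the 44 WT erythroid-like cells at 9.38% of its level over the whole library, in WT NKT or gamma delta T-like cells at 11.1%, and in DN-like cells at 9.69% (WT) and 12.1% (cKO). Taking the DN-like share, at the depth of those cells (median 5142 and 5488 UMIs), free RNA alone would give about *Ccnd2* 18.3 CPM in WT and 7.75 CPM in cKO cells, and *Ccnd3* 139 and 129 CPM. *Ccnd3* stood at 144 CPM in WT erythroid-like cells, and this is read as background. In shallower cells, such as resting DP-like ones, free RNA can take a larger share. The same estimate was 25.3 CPM in WT and 41.1 CPM in cKO for *Cdk4*, and 22.3 and 28.9 CPM for *Cdkn2d*. It was 12.4 CPM or less for *Cdk6*, *Cdkn1a*, *Cdkn1b* and *Cdkn2c* in both libraries.

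*Ccnd3* was highest in resting DP-like cells and *Ccnd2* in mature single-positive (SP)-like cells, and each was lower where the other peaked (see the plot of levels by class). *Ccnd3* stood at 2541 CPM (95% interval 2498–2585, 13254 UMIs) in resting DP-like WT cells and at 1991 CPM (1943–2041) in those of cKO. It was at 1870 and 1161 CPM in early post-selection-like cells, at 834 and 529 CPM in resting mature SP-like cells, and at 467 and 244 CPM in resting DN-like cells. In both libraries this gives the order DP, early, mature, DN, with intervals that do not overlap between neighbours. *Ccnd2* ran the other way, with 908 CPM (872–945, 2439 UMIs) in resting mature SP-like WT cells, 435 CPM (396–476) in those of cKO, 906 CPM in the 52 WT NKT or gamma delta T-like cells, and 420 and 430 CPM in resting DN-like cells. In resting DP-like cells it was at 10.2 and 7.49 CPM, which is at or under the level that free RNA would give. Early post-selection-like cells held 27.3 CPM (18.7–38.6) in WT and 24.3 CPM (15.6–36.2) in cKO, far below the mature cells. *Ccnd1* was scarce throughout, with 90 UMIs in the WT library and 21 in cKO. It was highest in the antigen-presenting-like cells, with 116 CPM (24 UMIs in 64 cells) in WT and 131 CPM (8 UMIs in 27 cells) in cKO. Resting DP-like cells held 32 *Ccnd1* UMIs in WT (6.14 CPM, 4.20–8.66) and 2 in cKO (0.624 CPM, 0.0756–2.25), beside the 0.475 CPM that free RNA would give in WT.

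**Figure D1:**
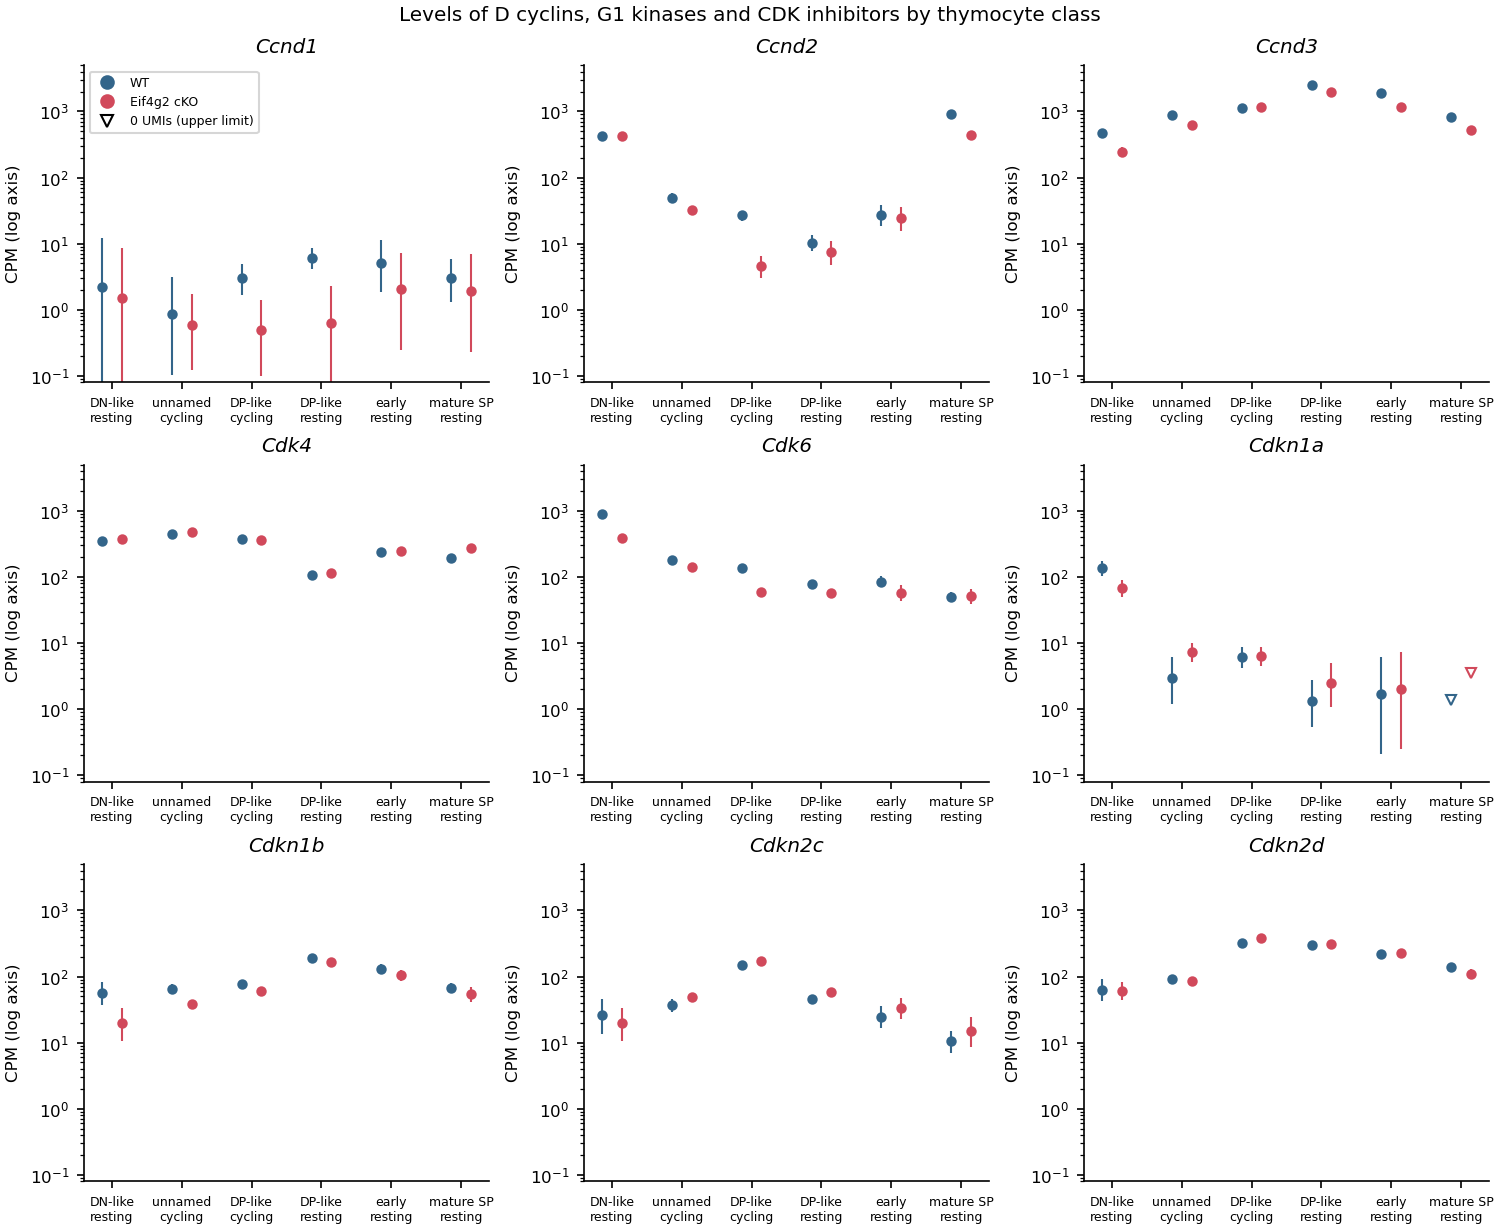
Level of each gene in CPM (log axis) in 6 thymocyte classes for the WT and the *Eif4g2* cKO library. Points are UMIs summed over the cells of a class, bars are exact Poisson 95% intervals, and open triangles mark the upper limit where 0 UMIs were counted. *Ccnd3* peaks in resting DP-like cells (2541 and 1991 CPM), *Ccnd2* in mature SP-like and DN-like cells, and *Cdk6* and *Cdkn1a* in DN-like cells.

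The switch between the cyclins can be put as the share of *Ccnd2* among all D cyclin UMIs, which compares classes and not transcript numbers between genes. It was 47.2% (42.3–52.2%) in resting DN-like WT cells and 63.6% (58.9–68.1%) in those of cKO. It dropped to 0.397% and 0.374% in resting DP-like cells, was 1.44% and 2.05% in early post-selection-like cells, and was back at 52.0% (50.6–53.5%) and 45.0% (41.9–48.2%) in mature SP-like cells. Both ends of the path therefore had a mixed pool of D cyclin UMIs, and the DP and early stages between them had one of almost only *Ccnd3*. These shares are not corrected for free RNA. Over all DN-like cells *Ccnd3* stood at 432 CPM in WT and 267 CPM in cKO, where free RNA alone would give about 139 and 129 CPM. UMIs of both cyclins were found in single mature cells: after thinning each cell to 1000 UMIs, 173 of 736 resting WT cells had UMIs of both, 171 of *Ccnd2* alone and 206 of *Ccnd3* alone. In cKO these were 32, 41 and 72 of 271 cells. The share of resting mature cells with a *Ccnd2* UMI was 69.0% in WT and 48.7% in cKO before thinning (median 3346 and 3383 UMIs), and 46.7% and 26.9% after it. In WT erythroid-like cells, which should lack it, the shares were 4.55% before (median 6089.5 UMIs) and 2.27% after. *Ccnd3* stood at 144 CPM in the same erythroid-like cells, so free RNA can supply its UMI in some of the mature cells counted with both.

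The lower *Ccnd2* level of cKO mature cells was seen whichever coreceptor they showed. Among resting mature WT cells, those with only *Cd4* UMIs stood at 985 CPM (901–1074, 157 cells) and those with only *Cd8a* or *Cd8b1* UMIs at 909 CPM (849–971, 261 cells). In cKO these were 632 CPM (488–805, 39 cells) and 396 CPM (332–468, 87 cells). In both kinds of cell the interval of cKO lies below that of WT, and within cKO the cells with only CD8 coreceptor UMIs were the lower ones. Coreceptor UMIs of single cells are sparse and include free RNA, so these are not sorted CD4 and CD8 SP cells. Mature SP-like markers as a list (10 genes) summed to 2819 CPM in resting mature WT cells and to 1901 CPM in those of cKO. The part of this difference in the *Ccnd2* values was not tested.

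**Figure D2:**
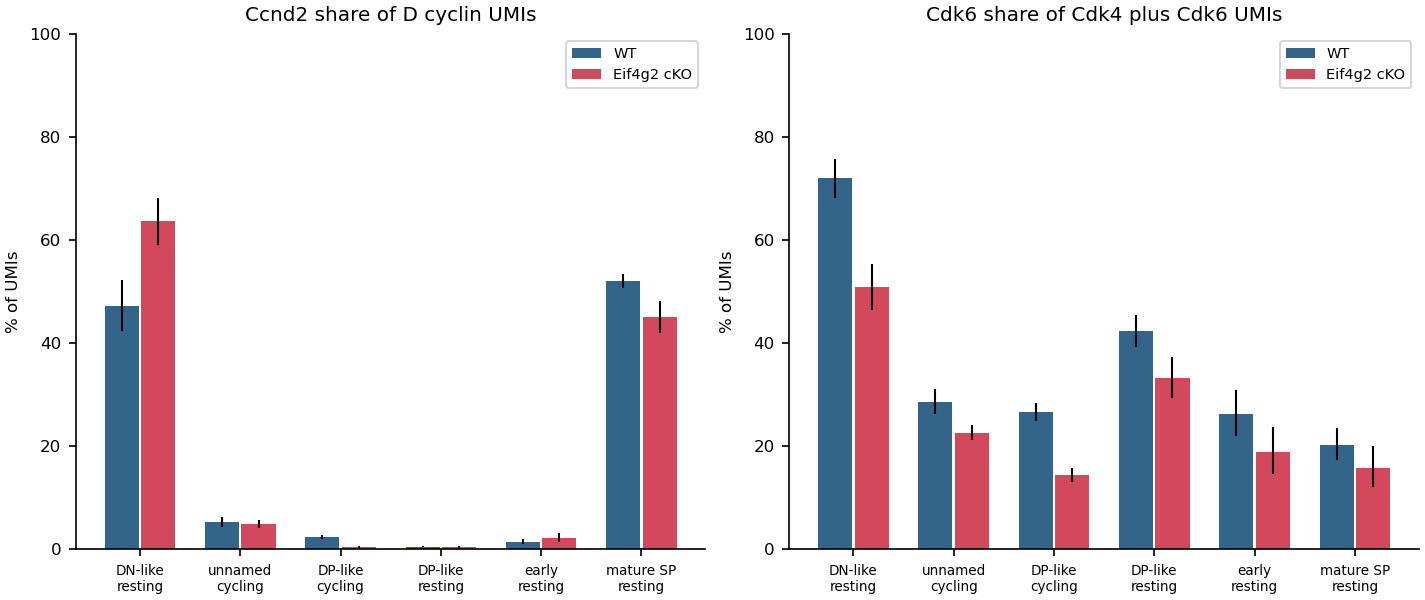
*Ccnd2* as a percent of D cyclin UMIs (left) and *Cdk6* as a percent of *Cdk4* plus *Cdk6* UMIs (right) in 6 thymocyte classes, with Clopper-Pearson 95% intervals as bars. The *Ccnd2* share is between 45.0% and 63.6% in resting DN-like and mature cells and 0.397% and 0.374% in resting DP-like cells. The *Cdk6* share is lower in cKO than in WT in each class, with intervals that overlap in early and mature cells. *Cdk6* is the much longer gene, and ratios of cKO to WT fell with genomic span.

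The partner kinases differed in where they were high. *Cdk6* was a gene of DN-like cells, with 898 CPM (813–989, 413 UMIs) in resting WT and 389 CPM (342–439, 256 UMIs) in resting cKO cells. Resting DP-like cells held 78.2 and 57.4 CPM, early post-selection-like cells 85.3 and 57.8 CPM, and mature SP-like cells 49.5 and 51.4 CPM. The neighbours DP and early do not differ beyond their intervals in either library. *Cdk4* was less confined, with 348 and 376 CPM in resting DN-like cells, 448 and 483 CPM in the cycling cells of the unnamed cluster, and its lowest T lineage level in resting DP-like cells at 107 CPM (98.1–116) in WT and 115 CPM (104–128) in cKO. It was at 241 and 249 CPM in early post-selection-like cells and at 195 and 275 CPM in resting mature ones. *Cdk6* made up 72.1% of *Cdk4* plus *Cdk6* UMIs in resting DN-like WT cells and 50.8% in cKO, against 20.3% and 15.7% in resting mature cells.

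The promoter of *Cdk4* is shown because its level moved with the cycling state in both libraries and its pattern was closest to genes of ribosome making. The RefSeq promoter table (GRCm38.p6, 250 bases before to 50 after each start) held 7 of the 9 genes in 10 windows. *Ccnd1* and *Ccnd2* had no entry. The 10 windows were searched on both strands for 4 forms of the E2F element (TTTCCCGC, TTTGGCGC, TTTCGCGC and TTTGCCGC), and none held one, against 2.26% of all 32851 promoters. The E box CACGTG, which reads the same on both strands and is bound by MYC and related factors, was searched after that. The *Cdk4* promoter (plus strand) held it 4 times. At least 4 copies occur in 8 of 32851 promoters (0.0244%) and at least 1 in 7.15%. The 3 stretches that carry these copies, 5′ to 3′ with the E box in capitals, are these.
*Cdk4* chr10:127063357-127063374: gccagtCACGTGccacac
*Cdk4* chr10:127063415-127063444: gtCACGTGggatagcaacaggtCACGTGgc
*Cdk4* chr10:127063518-127063534: gaagatCACGTGtccag
*Cdk6* held the box once, at 220 bases before its RefSeq start. That start and the stretch shown lie inside the GENCODE gene span given above, which begins further upstream. The second start of *Cdkn2c* also held 1 copy, and the other promoters held none.
*Cdk6* chr5:3343667-3343684: cggcccCACGTGggtgaa
A match of letters is a description and shows no binding. The *Cdk4* promoter was shown for its pattern and the E box was the second motif searched, so the 0.0244% is no test. With 10 windows and a share of 2.26%, the lack of an E2F match says little.

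Of the CIP/KIP inhibitors, *Cdkn1b* went with *Ccnd3*. It stood at 193 CPM (182–206, 1009 UMIs) in resting DP-like WT cells and 165 CPM (151–180) in those of cKO, at 130 and 104 CPM in early post-selection-like cells, at 68.1 and 54.2 CPM in resting mature cells, and at 56.5 and 19.7 CPM in resting DN-like cells. The order is the same in both libraries, but in WT the mature and DN-like intervals overlap (58.6–78.7 and 36.9–82.8 CPM). *Cdkn1a*, the p53 target p21, was highest in DN-like cells among thymocytes, with 135 CPM (103–173, 62 UMIs) in WT and 68.3 CPM (49.8–91.4, 45 UMIs) in cKO. Resting mature cells held 0 UMIs in both libraries, which allows up to 1.37 CPM in WT and 3.51 CPM in cKO. Resting DP-like cells held 7 and 8 UMIs (1.34 and 2.49 CPM).

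Among resting cells of the named thymocyte stages, the INK4 inhibitors were both highest in DP-like cells, but they differed in the cycling state. They were not confined to DP-like cells. Cycling mature SP-like WT cells held *Cdkn2d* at 270 CPM (222–325) and *Cdkn2c* at 114 CPM (83.9–152). *Cdkn2c* was at 150 CPM (139–161) in cycling and 45.2 CPM (39.7–51.4) in resting DP-like WT cells, and at 172 and 58.6 CPM in cKO. It was at 10.4 and 15.2 CPM in resting mature cells, close to the 6.42 and 10.8 CPM that free RNA would give. *Cdkn2d* differed less between cycling (317 and 383 CPM) and resting DP-like cells (297 and 311 CPM), with log2 ratios of 0.10 in WT and 0.30 (0.19–0.41) in cKO. It was lower in early post-selection-like (223 and 230 CPM), mature (140 and 109 CPM) and DN-like resting cells (63.0 and 60.7 CPM). Within the unnamed cycling cluster *Cdkn2c* was at 36.6 and 48.7 CPM and *Cdkn2d* at 93.3 and 84.3 CPM, so both INK4 genes were lower there than in cycling DP-like cells.

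Set against resting DP-like cells, most of the genes moved by more than 2-fold at both ends of the path. A gene was counted with at least 50 UMIs over the 2 classes. In DN-like resting cells 7 of 8 counted members lay beyond 1 on the log2 scale in WT, against 33.4% of all 8292 genes counted, and 8 of 8 in cKO, against 36%. *Ccnd2*, *Cdk4*, *Cdk6* and *Cdkn1a* were higher, with log2 ratios of 5.37, 1.70, 3.52 and 6.65 in WT, and *Ccnd3*, *Cdkn1b* and *Cdkn2d* were lower (-2.44, -1.78 and -2.23). The median of the 8 in WT was 0.45 and that of all genes -0.52. In mature SP-like resting cells 5 of 7 lay beyond 1 in WT, against 25.9%, and 6 of 7 in cKO, against 24%. There *Ccnd2* was higher (6.48 and 5.86) and *Ccnd3*, *Cdkn1b*, *Cdkn2c* and *Cdkn2d* were lower in both libraries. *Cdk4* was past the limit in cKO (1.25) and not in WT (0.87), and the cKO ratio was 0.49 at clustering resolution 0.6 and 0.63 at resolution 1.6. In early post-selection-like cells it was 2 of 7 in WT, *Ccnd2* (1.43) and *Cdk4* (1.17), against 11.6%, and 1 of 6 in cKO, *Cdk4* (1.11), against 10.7%. *Cdk4* was thus past the limit in both libraries. *Ccnd2* in cKO had 1.70 (0.82–2.58) on 48 UMIs, under the 50 UMI limit. The inhibitors counted were lower in these cells by less than 2-fold. With the stage taken from each cell's own marker UMIs, the DN-like count in WT was 3, and *Cdk4* in mature cKO cells stood at 0.99. *Cdkn2d* in mature WT cells (-1.08) was at -0.64 relative to the median of all genes.

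Within the DP-like class, cycling cells had more *Cdk4* and *Cdkn2c* and less *Cdkn1b* in both libraries (see the plot of cycling against resting cells). *Cdk4* was at 372 CPM in cycling and 107 CPM in resting WT cells, a log2 ratio of 1.80 (1.66–1.94), and at 360 and 115 CPM in cKO, 1.64 (1.48–1.81). *Cdkn2c* had log2 ratios of 1.73 (1.51–1.94) and 1.55 (1.33–1.78). *Cdkn1b* was at 75.9 and 61.4 CPM in cycling cells, log2 ratios of -1.35 (-1.52 to -1.18) and -1.43 (-1.62 to -1.23). So transcripts of the kinase and of an inhibitor of it were both higher in cycling DP-like cells, and p27 transcripts were lower. Proteins were not measured here. *Ccnd3* was lower in cycling cells of both libraries, at 1115 and 1173 CPM, with log2 ratios of -1.19 in WT and -0.76 in cKO. *Cdk6* had 0.78 (0.60–0.96) in WT and 0.06 (-0.20 to 0.33) in cKO. In all, 5 of 7 counted members lay beyond 1 in WT, against 40.7% of all genes (9.54% higher and 31.2% lower), and 3 of 7 in cKO, against 40.5% (7.99% higher and 32.5% lower). The share of all genes beyond 1 is large here, and the median of all genes was -0.58 in WT and -0.61 in cKO, so that relative to it *Cdkn1b* stood at -0.78 and -0.81 and *Ccnd3* in WT at -0.61. With cells limited to 1000 to 10000 UMIs and at most 3% mitochondrial UMIs, *Ccnd3* and *Cdkn1b* in WT had -0.82 and -0.86. *Cdkn1a*, with 31 and 39 UMIs in cycling cells, was under the 50 UMI limit.

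**Figure D3:**
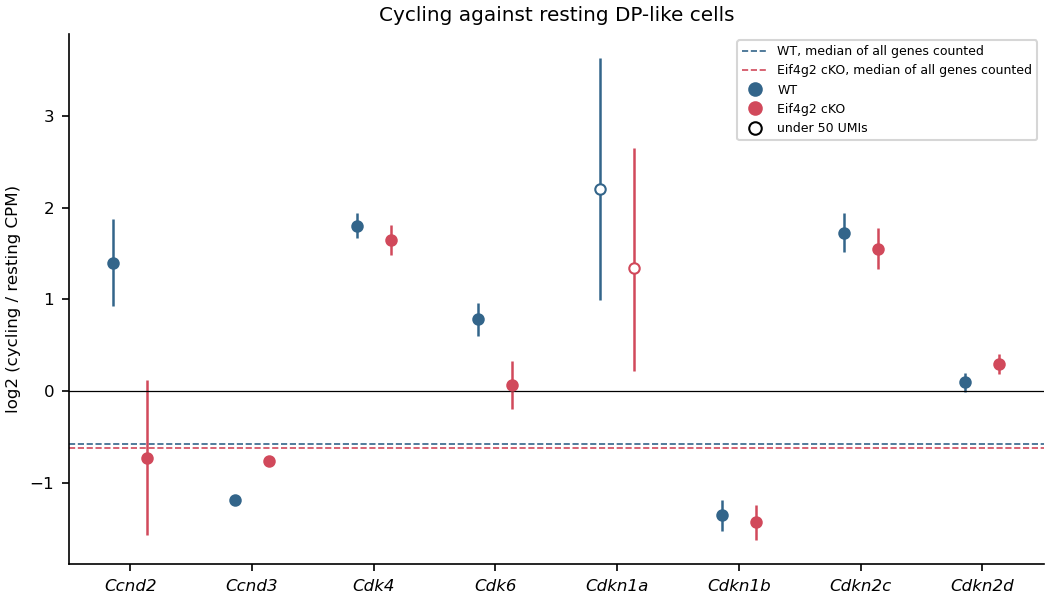
Log2 ratio of CPM in cycling over resting DP-like cells for 8 genes in the WT and *Eif4g2* cKO libraries, with exact conditional binomial 95% intervals. Dashed lines are the medians of all genes counted (-0.58 and -0.61), and open points rest on fewer than 50 UMIs. *Cdk4* and *Cdkn2c* lie above 1 in both libraries and *Cdkn1b* below -1, while *Ccnd2* is on opposite sides of 0.

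*Ccnd2* was the counted member that differed most between the libraries in cycling DP-like cells, with 134 UMIs in WT (26.7 CPM, 22.4–31.6) and 28 in cKO (4.53 CPM, 3.01–6.54). *Ccnd1* was not counted there, with 15 UMIs in WT (2.99 CPM) and 3 in cKO (0.485 CPM). The WT level of *Ccnd2* is above, and the cKO level below, the 18.3 and 7.75 CPM estimated for free RNA. These UMIs came from few cells: 72 of 722 WT cells had one, 36 of these 72 had over 10000 UMIs in all, and 11 cells with 3 or more held 66 of the 134 UMIs. Mature SP-like markers summed to 151 CPM in the WT cells with a *Ccnd2* UMI and to 144 CPM in those without, and DN-like markers to 270 and 206 CPM. The part of these in the result was not tested. A narrower cell filter kept cells of 1000 to 10000 UMIs with at most 3% mitochondrial UMIs, clustered anew. Under it the log2 ratio of cycling to resting cells in WT was 0.46 in place of 1.39. That of cKO to WT in cycling cells was -0.71 in place of -2.56. The part of each limit was not tested.

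The other stages had fewer cycling cells, and values there are given for what they hold. In mature SP-like cells (58 cycling in WT and 20 in cKO, with medians of 6726.5 and 9391 UMIs against 3346 and 3383 in resting cells), *Cdkn2c* was at 114 CPM (83.9–152, 47 UMIs) in cycling and 10.4 CPM in resting WT cells, a log2 ratio of 3.45 (2.75–4.18), and at 76.8 CPM (15 UMIs) and 15.2 CPM in cKO. *Cdkn2d* was at 270 against 140 CPM in WT and 276 against 109 CPM in cKO, log2 ratios of 0.95 and 1.34. This puts *Cdkn2c* on the side of cycling cells in the mature as in the DP-like class. *Ccnd2* was at 530 CPM in cycling mature WT cells against 908 CPM in resting ones, and at 410 against 435 CPM in cKO. With the stage from own marker UMIs *Cdkn2d* in cKO had 0.32 in place of 1.34. In mature WT cells 1 of 7 counted members lay beyond 1, against 16.9% of all genes, and in cKO 2 of 6, against 16.6%, namely *Cdkn2d* and *Cdkn1b* (-1.08, and -0.96 relative to the median of all genes). In the 21 cycling DN-like cells of cKO *Ccnd2* stood at 153 CPM against 430 CPM in resting ones, the 1 of 6 members beyond 1, against 9.69%. With the cycling state taken after thinning, this ratio of -1.49 was -0.89.

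Cycling cells were split into S type and G2/M type by which of the fixed lists was higher relative to its mean over all cells. *Cdk4* was the higher in S type cells and *Cdkn2d* in G2/M type cells, in both libraries and in both cycling classes. S type cells were also deeper. In DP-like cells the medians were 7121 against 4305 UMIs in WT and 6158 against 5530 in cKO. In the unnamed cluster they were 6892 against 3770 in WT and 9051 against 5682 in cKO. The part of depth and free RNA in the ratios was not tested. Among cycling DP-like WT cells *Cdk4* was at 508 CPM in the 287 S type cells and 231 CPM in the 435 G2/M type cells, a log2 ratio of G2/M to S of -1.13 (-1.28 to -0.99). In cKO it was at 495 and 247 CPM, a log2 ratio of -1.004 (-1.13 to -0.88). This is barely beyond 1, and the interval spans that limit. *Cdkn2d* went from 154 CPM in S type to 487 CPM in G2/M type WT cells, 1.66 (1.49–1.82), and from 208 to 529 CPM in cKO, 1.35 (1.21–1.48). The level of *Cdkn2d* over all cycling DP-like cells is therefore the mean of a low and a high group. *Cdkn2c* (0.83 and 0.75) and *Cdkn1b* (0.81 and 0.83) were higher in G2/M type cells by less, as was *Ccnd3* (0.51 and 0.27), and *Cdk6* was lower (-0.57 and -0.34). In the unnamed cycling cluster the ratios were 2.33 and 1.32 for *Cdkn2d*, -0.90 and -0.58 for *Cdk4*, 1.22 and 1.05 for *Cdkn1b*, 0.09 and 0.03 for *Cdkn2c*, and 0.27 and -0.09 for *Cdk6*. Beyond 1 lay 3 of 7 counted members in WT DP-like cells (*Cdkn2d*, *Cdk4* and *Ccnd2*, the last at -1.23), against 7.8% of all genes, and *Cdkn2d* and *Cdk4* in cKO, against 5.2%. In the unnamed cluster *Cdkn2d* and *Cdkn1b* lay beyond 1 in both libraries, against 9.96% of genes in WT and 8.12% in cKO. The medians of all genes in DP-like cells were 0.17 and 0.08.

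**Figure D4:**
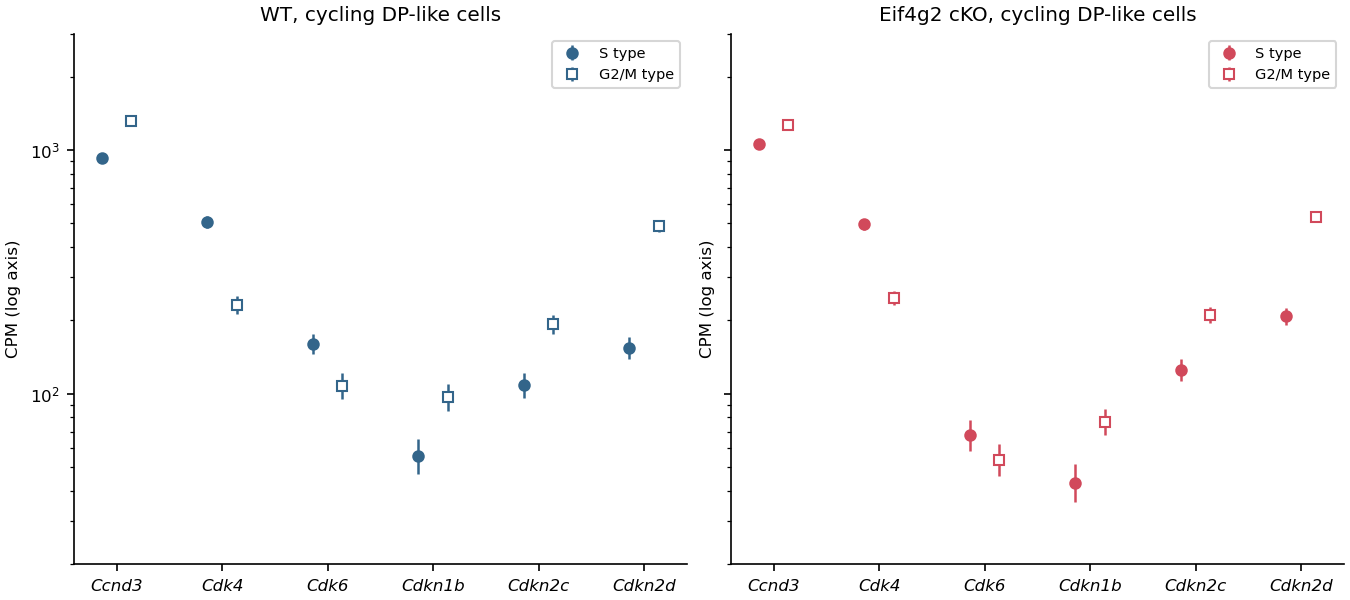
Levels in CPM (log axis) of 6 genes in S type (filled) and G2/M type (open) cells among cycling DP-like cells of the WT (left) and *Eif4g2* cKO (right) libraries, with exact Poisson 95% intervals. *Cdk4* is the higher in S type cells (508 and 495 CPM) and *Cdkn2d* in G2/M type cells (487 and 529 CPM). S type cells were deeper, with medians of 7121 and 6158 UMIs against 4305 and 5530.

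The comparison of cKO with WT asks whether loss of *Eif4g2* goes with a change of these genes at a given stage. It was read at the study's limit of 0.5 on the log2 scale, beside the median of all genes and of genes with a like genomic span, since the ratio fell with span: in resting DP-like cells the median was 0.21 for genes up to 5 kb and -0.77 for those over 100 kb. In resting DP-like cells 0 of 7 counted members lay beyond 0.5, against 38.1% of all 8793 genes (8.2% higher and 29.9% lower). *Ccnd3* had -0.35 (-0.40 to -0.31), near the -0.32 of genes of 20 to 100 kb, and *Cdk6* -0.45 (-0.71 to -0.19), above the -0.77 of genes over 100 kb. *Cdkn2c* had 0.37 (0.09–0.66). For *Ccnd3* the values also differed between clusters. Cluster 1, which held most resting cKO cells, was at 2101 CPM in its 119 WT cells and 1876 CPM in its 1400 cKO cells, while cluster 0 was at 2577 CPM in 1895 WT cells and 2628 CPM in 109 cKO cells. In cluster 4, with 527 WT and 484 cKO cells, the values were 2319 (2221–2419) and 2029 (1946–2113) CPM. *Cdk6* differed in direction between clusters. In cluster 0 it was at 83.7 CPM (74.1–94.3) in WT and 250 CPM (189–325, 56 UMIs) in cKO. In clusters 1, 4 and 5 it was at 62.8, 87.9 and 62.2 CPM in WT. The cKO values there were lower, at 47.3, 56.7 and 28.7 CPM, with intervals that overlap those of WT.

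After selection *Ccnd3* was lower in cKO in early and mature cells, and *Ccnd2* in mature ones. In early post-selection-like cells *Ccnd3* had -0.69 (-0.79 to -0.58), against -0.37 for genes of its span, and *Cdk6* -0.56 (-1.06 to -0.08), against -0.92, so 2 of 7 members lay beyond 0.5, against 42.1%. In resting mature cells *Ccnd2* had -1.06 (-1.21 to -0.92) and *Ccnd3* -0.66 (-0.79 to -0.52), against -0.36 for their span class, 2 of 6, against 44% (9.49% higher and 34.6% lower). *Ccnd2* in early cells had -0.17, with intervals of the levels that overlap. *Cdk4* in resting mature cells was the member nearest to the limit on the other side, with 0.50 (0.29–0.71). Relative to the median of all genes *Ccnd3* was at -0.46 in early and -0.43 in mature cells, inside the limit. The *Cdk6* ratio in early cells was inside it under 9 alternatives, between -0.15 and -0.50.

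In cycling DP-like cells 2 of 8 members lay beyond 0.5, against 38.2% (4.17% higher and 34% lower). These were *Ccnd2* (-2.56) and *Cdk6*, with 135 CPM in WT and 60.0 CPM in cKO, a log2 ratio of -1.17 (-1.35 to -0.98) against -0.95 for genes over 100 kb and -0.46 with the stage from each cell's own marker UMIs. *Ccnd3*, *Cdk4*, *Cdkn2c* and *Cdkn2d* had 0.07, -0.05, 0.20 and 0.27. The unnamed cycling cluster gave 2 of 7, *Ccnd2* (-0.61) and *Cdkn1b* (-0.74), against 38.7%. In resting DN-like cells, where Cre is not expected to have acted, 3 of 6 lay beyond 0.5, against 39.7%, namely *Cdk6* (-1.21, -1.44 to -0.98), *Cdkn1a* (-0.98, -1.57 to -0.40) and *Ccnd3* (-0.94, -1.24 to -0.63). Genes of the span of *Cdk6* had a median of -1.01, and those of the spans of *Ccnd3* and *Cdkn1a* had -0.27 and 0.07. DN-like markers (9 genes) summed to 1848 CPM in WT and 1289 CPM in cKO there, and antigen-presenting markers (10 genes) to 73.9 and 325 CPM. Their part in these ratios was not tested. With the stage from own marker UMIs *Cdk6* was at -0.47 and *Cdkn1a* at -0.25. *Ccnd3* and *Cdk6* were thus lower in cKO in the resting DN-like class too, and what this class shares with the later ones was not tested. No counted member of these classes was higher in cKO by more than 0.5. Few of all genes were, with 8.2% in resting DP-like, 4.17% in cycling DP-like and 9.49% in resting mature cells, so this says little about the members. In the mature cycling cells (58 and 20) *Cdkn2c* had -0.57 (-1.52 to 0.29), the 1 of 5 beyond 0.5, against 42.5%.

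**Figure D5:**
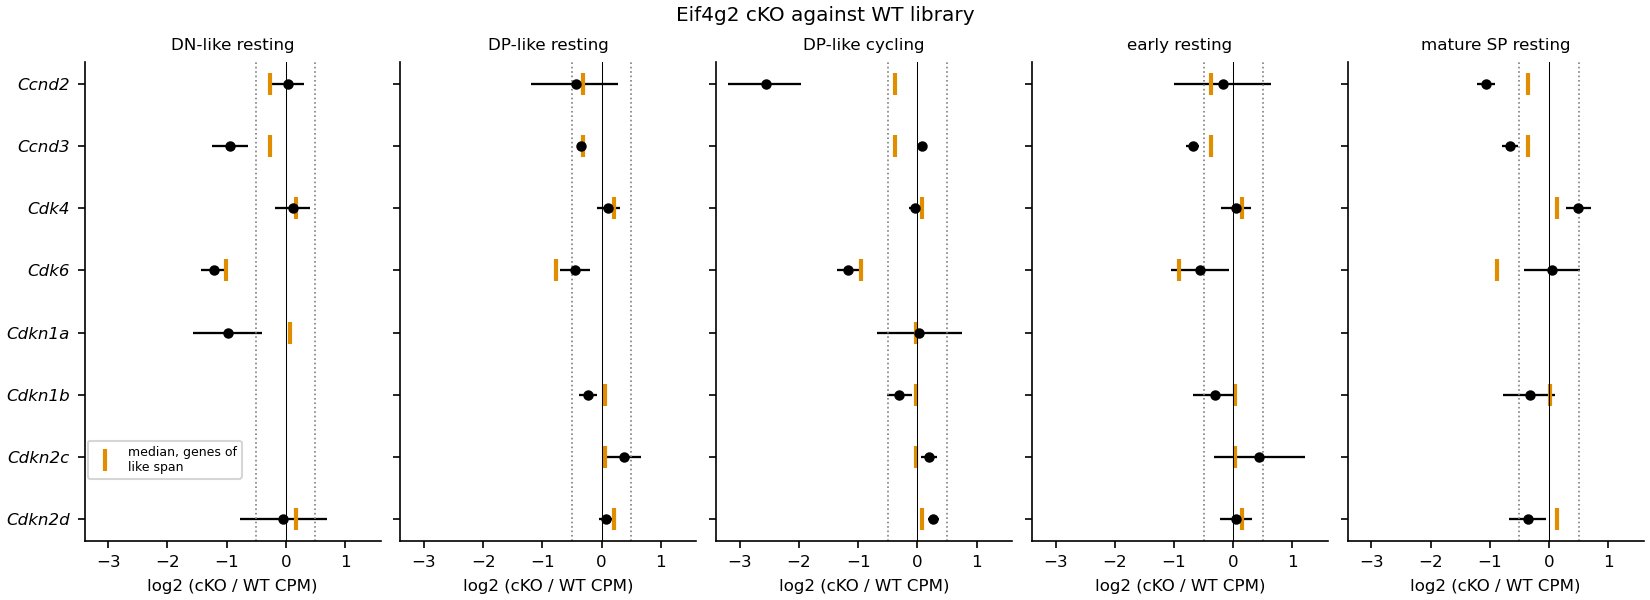
Log2 ratio of CPM in *Eif4g2* cKO over WT in 5 thymocyte classes, with exact conditional binomial 95% intervals, for members with at least 50 UMIs in that class. Dotted lines mark 0.5 in either direction, and orange ticks mark the median of genes of like genomic span. *Ccnd2* is beyond -0.5 in cycling DP-like and mature cells, and *Ccnd3* in DN-like, early and mature cells. No member is beyond 0.5 upward, where 8.2% of all genes in resting DP-like, 4.17% in cycling DP-like and 9.49% in resting mature cells were.

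The other genes of G1 and S entry (36 in the list, 34 where genes of the cycle lists were left out) include cyclin E, the pocket proteins, the E2F factors and upstream regulators. In cycling against resting DP-like cells, 12 of 30 counted genes were higher and 6 lower by over 1 in WT, where 9.54% of all genes were higher and 31.2% lower. In cKO 8 were higher and 8 lower, where 7.99% of all genes were higher and 32.5% lower. The medians of the list were 0.17 and -0.16, against -0.58 and -0.61 for all genes. Higher in both libraries were *Tfdp1* (2.06 and 1.61), the DNA-binding partner of E2F proteins, *Rbl1* (p107, 1.64 and 1.36), *Ccne1* (cyclin E1, 3.39 and 4.15) and *E2f3* (1.93 and 1.71). Lower in both were *Myb* (-1.46 and -1.31), *Foxo1* (-1.06 and -1.55) and *Foxo3* (-1.76 and -1.60), forkhead factors known to induce *Cdkn1b*, and *Ccng1* (-1.35 and -1.32), a p53 target. *Cdkn2a*, an INK4 inhibitor outside the 9 genes, held 4 and 9 UMIs in cycling and 0 in resting DP-like cells, and *Cdkn2b* at most 1 in each.

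Between the libraries, 6 of 29 counted genes of this list were higher in cKO by over 0.5 and 7 lower in resting DP-like cells, with a median of -0.13 against -0.19 for all genes. Of all genes 8.2% were higher and 29.9% lower there. The named ones were *Ccng1* (0.52), *Cdk2* (0.55), *Cks1b* (0.95) and *Tfdp1* (0.69) on the higher side, and *E2f2* (-1.20), *Mnat1* (-0.60), *Fbxw7* (-0.96) and *Rb1* (-0.57) on the lower. In resting mature cells it was 4 higher and 7 lower of 25, where 9.49% of all genes were higher and 34.6% lower, with *Cks1b* (1.11), *E2f4* (0.90), *Ccng1* (0.98) and *Tfdp1* (0.55) higher and *Rb1* (-0.86), *Mnat1* (-1.10), *Notch1* (-1.40) and *Cdc25a* (-0.63) lower. *Ccng1*, *Cks1b* and *Tfdp1* were thus higher, and *Rb1* and *Mnat1* lower, in both resting classes. *Rb1* and *Mnat1* are among the genes over 100 kb, whose medians were -0.77 in resting DP-like and -0.88 in resting mature cells. In cycling DP-like cells 2 of 33 were higher and 14 lower, where 4.17% of all genes were higher and 34% lower. In early post-selection-like cells it was 2 and 7 of 24, where 42.1% of all genes lay beyond 0.5 in either direction, and in resting DN-like cells 1 and 2 of 11, where 39.7% did.

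Across the 21 classes of at least 20 cells, *Ccnd3* and *Cdkn1b* followed each other most closely of all pairs of members (Pearson r = 0.93 of log2(CPM + 10)), then *Ccnd3* and *Cdkn2d* (0.75), *Cdkn2c* and *Cdkn2d* (0.71) and *Cdk4* and *Cdk6* (0.71). *Ccnd2* and *Ccnd3* had the lowest value (-0.45). These are descriptions over classes that share libraries and depth and are no replicates. Of 7001 other genes with at least 500 UMIs, those most like *Cdk4* were *Nop58* (0.98) and *Pa2g4* (0.95), genes of ribosome making and growth. Most like *Ccnd3* were *Sit1* (0.94) and *Sla* (0.91), adaptors that dampen T cell receptor signalling, and most like *Ccnd2* were *Nkg7* (0.89) and *Rtp4* (0.88). *Cdk6* was nearest to *Prss57* and *Myl10* (0.93 each), *Cdkn1b* to *Dnajc3* (0.94) and *Traf6* (0.93), *Cdkn2c* to *Hist1h1d* (0.83) and *Rad21* (0.82), *Cdkn2d* to *Hist1h1c* (0.81) and *Cbfb* (0.80), and *Cdkn1a* to *Mcub* and *Adgrg1* (0.84 each).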

How the data were processed

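Both libraries were made with the DNBelab C4 system, which counts 3′ tags by UMI. The authors made the gene by barcode tables with dnbc4tools, and mm10 is the build in the submitters' processing notes. The deposited values are raw UMI counts per gene and cell barcode, and the annotation is not given in the sources used here. The oligo libraries hold bead barcodes and no gene counts, and were not used.

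Barcodes with at least 50 genes and at most 10% mitochondrial UMIs were kept (6012 WT and 4335 cKO). Libraries ranged from 1000 to 50432 and from 1000 to 44595 UMIs per barcode. Doublets were not called or removed, and 264 and 419 cells had over 10000 UMIs. Clustering used Scanpy 1.11.5 and leidenalg 0.10.2 with 1989 genes, 30 components, 20 neighbours and resolution 1. A marker list could name a cluster when at least 3 of its genes and 40% of the list stood at 25% or more of their highest cluster level. Among such lists the one with the most genes among the cluster's 10 leading genes was taken, then the one with the highest mean relative level. The cycling clusters 7 and 8 met it for DP with 6 of 11 markers. This rule was set after the data were seen. UMIs were summed per class of at least 20 cells and divided by the class total (CPM). A gene was counted in a ratio with at least 50 UMIs. Limits were 1 on the log2 scale within a library and 0.5 between libraries. Poisson, conditional binomial and Clopper-Pearson 95% intervals (SciPy 1.17.1) cover counting error only. The scripts were tested on simulated data.

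The members and the lists were chosen with earlier results of these data known. Named pathway genes were the 4 with the most UMIs among those beyond the limit in a direction. The alternatives were other resolutions, each library clustered alone, cell cycle genes kept, stage from each cell's own markers, other cycling thresholds, thinning, a narrower cell filter, equal weight per cell, centring on the median of all genes, leaving out mitochondrial and ribosomal genes, and a minimum of 20 UMIs.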

Additional observations from a re-analysis of the deposited data

Results flagged for a closer look

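*Ccnd2* in cycling against resting DP-like cells lay on opposite sides of 0 in the libraries, with a log2 ratio of 1.39 (0.92–1.88) in WT and -0.73 (-1.57 to 0.12) in cKO, an interval that includes 0. The difference was not tested, since each genotype is 1 library. The level in cycling cells was 26.7 CPM in WT and 4.53 CPM in cKO, beside about 18.3 and 7.75 CPM that free RNA would give, and the resting cKO level of 7.49 CPM was also under the latter. The WT ratio was 0.46 with cells of 1000 to 10000 UMIs and -0.12 with the stage from own marker UMIs. In WT, 36 of the 72 cycling DP-like cells with a *Ccnd2* UMI had over 10000 UMIs. Their part in the result was not tested.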

How the results depend on the processing

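Of 48 log2 ratios beyond their limit, 25 stayed beyond it under every alternative run and 23 did not under at least 1, of which 16 lost it with the stage taken from each cell's own marker UMIs and 10 relative to the median of all genes. One changed sign, namely *Ccnd2* in cycling against resting DP-like WT cells, at -0.12 with the stage from own marker UMIs. The 48 do not include all ratios reported beyond a limit. Those of early post-selection-like against DP-like cells, of the unnamed cycling cluster and of G2/M against S type cells are not among them. Of 221 counts under an alternative, 188 stayed within 1.5 times the reported count and 33 did not, and the cause was not tested. The counts of members beyond the limit were as follows.

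Between the libraries, resting DP-like cells gave 0, which became 1 at resolution 1.6, with each library clustered alone, at a cycling threshold multiplied by 0.67 or by 1.5, with the cycling state after thinning, with at least 20 UMIs and relative to the median of all genes, and 2 with cells weighing equally. Cycling DP-like cells gave 2, which became 4 with each library alone. Early post-selection-like cells gave 2, which became 1 with cell cycle genes kept, with cells weighing equally and relative to the median. Resting mature cells gave 2, which became 4 at resolution 0.6 and with each library alone, and 5 with the stage from own markers. The other G1 genes there gave 11, which became 6 at resolution 1.6.

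Cycling against resting DP-like cells gave 5 in WT, which became 2 with cells of 1000 to 10000 UMIs, with cells weighing equally and with own markers, and 3 in cKO, which became 5 at resolution 0.6. DN-like against DP-like WT cells gave 7, which became 3 with own markers, and mature against DP-like cKO cells gave 6, which became 3. Early against DP-like cells gave 2 in WT, which became 5 at resolution 0.6, 4 at resolution 1.6, and 1 with equal weights or the threshold multiplied by 1.5. In cKO it gave 1, which became 4 at resolution 0.6, 5 at resolution 1.6, 3 with cell cycle genes kept, 2 with cells of 1000 to 10000 UMIs, each library alone or at least 20 UMIs, and 4 with own markers.

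*Ccnd3* in cycling against resting DP-like WT cells (-1.19) was at -0.61 relative to the median of all genes, and *Cdk6* in cKO against WT, cycling DP-like cells (-1.17), at -0.46 with own markers. No paired analysis was possible because each genotype has 1 library. Of 198 values for the highest levels under an alternative, 126 stayed within the counting interval and 72 did not. *Cdk6* in resting DN-like WT cells (898 CPM) ranged from 372 to 1396 CPM and *Cdkn1a* (135 CPM) from 51.4 to 210 CPM, lowest with own markers and highest when scaled without mitochondrial and ribosomal genes. Depth limits *Ccnd1* and *Cdkn1a*, which had too few UMIs for a ratio in most classes.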
